A study of Homo sapiens with 9 samples.

Results

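OVCA433 is an established human cell line from a serous ovarian carcinoma, and its poly(A) RNA was sequenced after lentiviral transduction and puromycin selection with a control vector, with shRNA#1 or with shRNA#3, which both target MPZL3, a membrane protein of the immunoglobulin superfamily. The shRNAs are called hairpin 1 and hairpin 3 here. Each group held 3 libraries, marked A, B and C, which were biological replicates of 1 line in the study's account. The control vector was described as an empty vector in 1 place of the study and as a scrambled hairpin in another. The genes described are the protein-coding genes that lie in the first 62.6 Mb of chromosome 5, with a start under 62600000 on GRCh38, and that had a mean of at least 5 CPM (counts per 1000000 counts of the library) over the 9 libraries. LIFR, OSMR, IL6ST, SDHA and the CDH and ADAMTS genes of the stretch were left out by name. Of 58676 genes in the count table, 102 met this rule, from CCDC127 near the tip of the short arm to IPO11 on the long arm. Of 184 eligible genes within the limit, 82 were under 5 CPM, and 30 of those had no count in any library. All 102 members were among the 15975 genes tested.

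The stretch was chosen by measured values, the levels of its genes with the 2 hairpins, which differed. The difference of hairpin 3 from hairpin 1 is therefore given as a description and carries no test, and the tests of either hairpin against control are not independent of that choice, since they use the same libraries.

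A human chromosome has 2 arms joined at the centromere, a stretch of repeats with few or no genes. Genes on 1 arm are neighbours by position and mostly unrelated in function, while each is normally switched on and off by its own promoter and enhancers. The short arm of chromosome 5 carries genes for ribosomal and mitochondrial proteins, for the ubiquitin ligase subunit SKP2, for the microRNA-processing enzyme DROSHA and for cytokine receptors. In carcinomas, ovarian ones included, whole chromosome arms are often gained or lost. The libraries counted RNA, and the number of chromosome copies was not measured in them.

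Library totals lay between 16850854 and 23890191 counts. MPZL3, the targeted gene, stood at 19.5 ± 3.42 CPM (SD, n = 3) with control, 1.88 ± 0.0927 CPM with hairpin 1 and 1.57 ± 0.514 CPM with hairpin 3, and the libraries of the 2 hairpins overlapped. PAX8, a transcription factor of the Muellerian lineage, was at 82.3 to 230 CPM and the keratins KRT7, KRT8 and KRT18 were at 686 to 5086 CPM, while WT1 was at 0 in all 9 libraries and MUC16 was at 0 in all 6 knockdown libraries. EPCAM, an epithelial adhesion molecule, was at 376 to 420 CPM with control and 4.68 to 9.94 CPM in the knockdown libraries. The pan-leukocyte marker PTPRC reached at most 0.888 CPM. The endothelial cadherin gene CDH5 was at most 0.143 CPM with control, 1.12 to 3.52 CPM with hairpin 1 and 2.88 to 5.16 CPM with hairpin 3, and its part in the results was not tested.

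The widest stretch of chromosome 5 without any listed gene ran over 4.5 Mb, from 45895970 to 50396192, and spans the centromere. The next widest measured 0.717 Mb. Placing the arms on either side of it, a split made after the values were seen, put 71 members on the short arm (CCDC127 to MRPS30) and 31 on the long arm (EMB to IPO11). As a description of the contrast that chose the stretch, 68 of 71 short-arm members had a lower mean with hairpin 3 than with hairpin 1, and in 67 every hairpin 3 library lay under every hairpin 1 library. Among the 31 long-arm members, 6 showed such a separation, and 13.2% of all tested genes did; nothing is read from these counts.

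To give the promoters of neighbours that moved alike and of those that did not, 4 are shown as RefSeq places them. ZNF622, a zinc finger protein that works in ribosome assembly, lay nearest to the median of the short-arm members in the difference between hairpins. HMGCS1, FAM105A and IL7R were the members farthest from the median of their arm. Each is the part, outside any GENCODE 29 exon, of the 250 bases before the RefSeq start, on GRCh38.p14 and read 5′ to 3′ on the gene's strand. ZNF622 is at chr5:16465801-16466050 (minus strand), HMGCS1 at chr5:43313513-43313662 (minus), FAM105A, which RefSeq names OTULINL, at chr5:14581542-14581774 (plus) and IL7R at chr5:35856688-35856848 (plus). The IL7R stretch lies inside the gene as the count table places it, which starts at 35852695, and 89 exonic bases of its window were left out. For HMGCS1 100 exonic bases were left out and for FAM105A 17, while the ZNF622 window is whole. The stretches thus measure 250 bases for ZNF622, 150 for HMGCS1, 233 for FAM105A and 161 for IL7R, so their counts of letters are not over equal lengths. Capitals mark matches on either strand to GGGCGG (GC box), CCAAT or TATAAA.
ZNF622: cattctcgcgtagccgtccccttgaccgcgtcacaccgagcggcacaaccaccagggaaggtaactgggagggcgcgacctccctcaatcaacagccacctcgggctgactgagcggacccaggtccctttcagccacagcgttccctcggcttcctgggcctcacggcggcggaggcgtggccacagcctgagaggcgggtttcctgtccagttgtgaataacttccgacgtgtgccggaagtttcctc
HMGCS1: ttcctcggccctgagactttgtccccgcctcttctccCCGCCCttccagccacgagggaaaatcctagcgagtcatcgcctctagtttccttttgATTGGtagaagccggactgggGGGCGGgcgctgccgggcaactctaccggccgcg
FAM105A: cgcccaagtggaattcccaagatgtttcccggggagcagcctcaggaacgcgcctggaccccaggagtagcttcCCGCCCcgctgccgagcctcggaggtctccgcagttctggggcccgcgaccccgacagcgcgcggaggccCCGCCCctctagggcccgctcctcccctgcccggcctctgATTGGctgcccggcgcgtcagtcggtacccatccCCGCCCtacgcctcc
IL7R: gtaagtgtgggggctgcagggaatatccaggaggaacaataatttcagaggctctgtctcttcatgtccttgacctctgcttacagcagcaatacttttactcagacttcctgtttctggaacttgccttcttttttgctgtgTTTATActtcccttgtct
The ZNF622 window held none of these letters and 21 CpG pairs. The stretch shown for HMGCS1 held 2 GC boxes, 1 CCAAT and 13 CpG pairs, and that for FAM105A held 3 GC boxes, 1 CCAAT and 24 CpG pairs. The IL7R stretch had no CpG pair and 1 TATAAA on the other strand. A RefSeq promoter was matched for 89 of the 102 members. In 55 of the 89 the bases just after the start were found near the opening of a GENCODE 29 transcript of the gene. Of the 4 shown, that held for ZNF622 and IL7R and not for HMGCS1 and FAM105A. Of the 61 matched short-arm windows of 250 bases, 73.8% held GGGCGG, 24.6% CCAAT and 3.28% TATAAA, and of the 28 long-arm windows 60.7%, 32.1% and 14.3% did. Over all 35116 promoter windows of the same length the shares were 42.6%, 32.0% and 10.7%. TCACNCCAC, the sterol element searched because of HMGCS1, was in none of the members' windows and in 0.883% of all promoters. The median number of CpG pairs in a window was 25 on the short arm, 20 on the long arm and 11 over all promoters. All promoters were taken without a filter on gene type or level, whereas the members are expressed protein-coding genes, so the sets are unlike. These matches describe the letters only.

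The short-arm members stood higher with hairpin 1 and lower with hairpin 3, in each library against the control mean. Shifts are log2 differences of CPM, scaled by TMM factors and with 0.5 added, and the median over the set is given. A knockdown library was set against the mean of the 3 control libraries and a control library against the mean of the other 2. With hairpin 1 the median short-arm shift was 0.52, 0.48 and 0.50 in libraries A, B and C. With hairpin 3 it was -0.09, -0.26 and -0.36, and in the control libraries it was 0.14, -0.05 and -0.09. All 3 hairpin 1 libraries lay above all control libraries, whereas hairpin 3 library A, at -0.09, lay level with the lowest control library. Within each letter the hairpin 3 library lay under the control library. The hairpin 1 medians were close together (0.50 ± 0.0221, SD, n = 3), and those of hairpin 3 were spread more widely (-0.24 ± 0.13).

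On the long arm the hairpin 1 libraries did not stand high. The long-arm median was -0.01, -0.20 and -0.27 with hairpin 1, -0.13, -0.28 and -0.45 with hairpin 3 and 0.21, -0.04 and -0.14 with control. The values of the 3 groups overlapped. The drop from the short to the long arm was thus in the hairpin 1 libraries: the short-arm median exceeded the long-arm median there by 0.53 to 0.77, and by 0.02 to 0.09 in the hairpin 3 libraries and -0.06 to 0.06 in the control libraries. The remaining 384 protein-coding genes of chromosome 5 at 5 CPM or more had medians of -0.03 to 0.09 with hairpin 1, -0.15 to -0.05 with hairpin 3 and -0.05 to 0.08 with control. Over the 10167 protein-coding genes of other chromosomes at the same level, every library's median lay within -0.02 and 0.01.

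**Figure D1:**
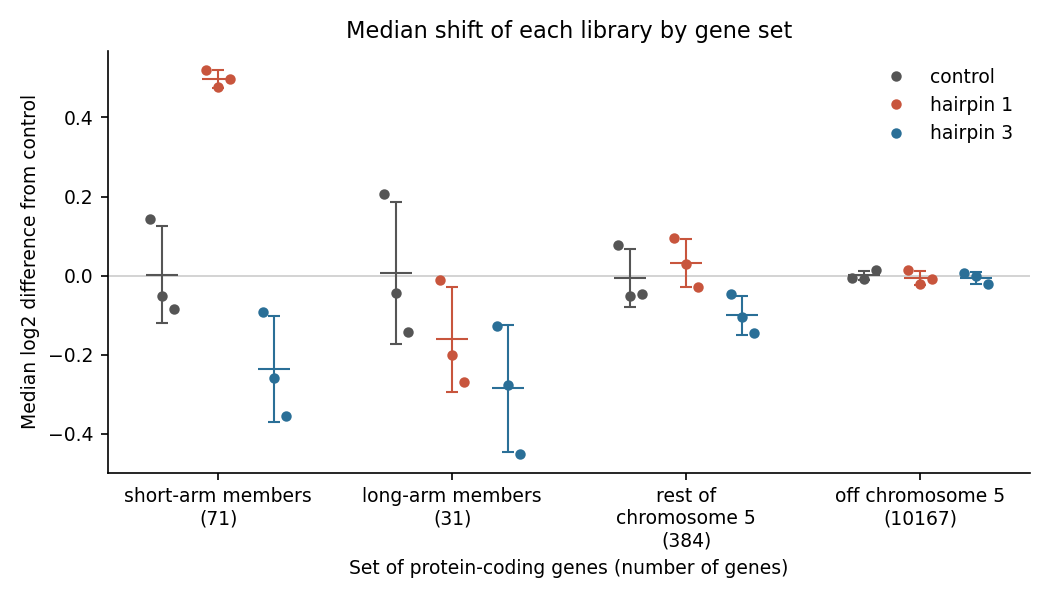
Median log2 difference from control in each library (points; the y axis is on the log2 scale) for short-arm members, long-arm members, the rest of chromosome 5 and protein-coding genes of other chromosomes, with the mean and SD of the 3 medians as bars. The hairpin 1 libraries sit at 0.48 to 0.52 for the short-arm members only, and the hairpin 3 libraries sit at -0.36 to -0.09 there and at -0.45 to -0.13 for the long-arm members.

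Replicate A was the highest of the 3 libraries on both arms in each of the 3 groups. Leaving out hairpin 3 library C moved the median short-arm difference of hairpin 3 from control from -0.25 to -0.17, and leaving out hairpin 3 library A moved it to -0.32. The whole set of 102 members moved likewise, from -0.26 to -0.17 without library C. For hairpin 1 the short-arm median stayed between 0.48 and 0.53 whichever of the 9 libraries was left out.

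As a share of all counts, the short-arm members took 0.830% ± 0.0503 (SD, n = 3) with control, 1.24% ± 0.0168 with hairpin 1 and 0.728% ± 0.0688 with hairpin 3. The long-arm members took 0.187%, 0.177% and 0.168%. The median short-arm member stood at 141.5% of its control level with hairpin 1 (log2 difference 0.50) and at 84.1% with hairpin 3 (-0.25). Hairpin 3 stood at 59.5% of hairpin 1 (-0.75), with the middle part of the members, from the lower to the upper quartile, between -0.88 and -0.61. The long-arm medians were -0.12, -0.26 and -0.11 for the same 3 differences, those of the rest of chromosome 5 were 0.03, -0.10 and -0.13, and those of all 15975 tested genes were -0.0004, -0.0035 and -0.0068.

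Along the chromosome, the members were cut in order into runs of neighbours within each arm, so that a boundary lay at the gap by construction, and the contrast between hairpins is given as a description. The short arm made 8 runs of 8 or 9 genes. The median difference of hairpin 3 from hairpin 1 lay between -0.83 and -0.66 in all 8 runs. It was -0.71 in the first run (CCDC127 to CLPTM1L) and -0.75 in the last run before the centromere (C5orf51 to MRPS30), and then -0.03 in the first long-arm run (EMB to NDUFS4). The 4 long-arm runs lay between -0.13 and -0.03, and the 39 runs of 9 or 10 genes over the rest of the chromosome lay between -0.28 and 0.01. Against control the short-arm runs lay between 0.37 and 0.72 with hairpin 1 and between -0.39 and -0.07 with hairpin 3.

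**Figure D2:**
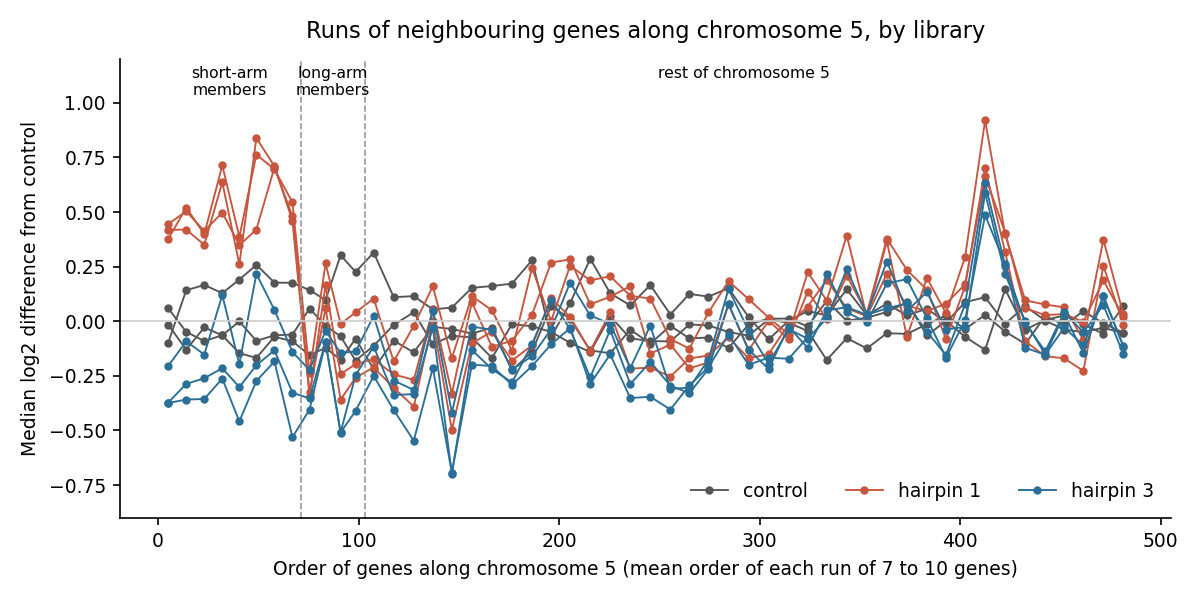
Median log2 difference from control (y axis) of runs of 7 to 10 neighbouring genes in their order along chromosome 5 (x axis), 1 line per library. The 3 hairpin 1 lines run above the controls over the short-arm members and fall at the first dashed line, which stands for the gene-free stretch, while the second dashed line marks the 62.6 Mb limit.

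The limit at 62600000 did not coincide with a change. DIMT1, an rRNA methyltransferase, and IPO11, a nuclear import receptor, were the last members inside it, with differences of hairpin 3 from hairpin 1 of 0.08 and -0.24. RNF180, a ubiquitin ligase, and SREK1IP1, a splicing factor partner, were the first genes beyond it, with -0.76 and 0.09. At the CPM limit, AHRR (-1.41) and PLPP1 (0.02) were just inside and NPR3 (1.15) and ACTBL2 (0.00) just outside. IPO11 shares exons with KIF2A, PLPP1 shares exons with SKIV2L2 and AHRR shares exons with PDCD6, so reads in the shared exons could be from either gene.

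Genes that the rule left out are given beside the members. On the short arm, all 28 genes of other types (such as antisense and long non-coding RNAs) at 1 CPM or more were lower with hairpin 3 than with hairpin 1, with a median of -0.74. Against control their median was 0.52 with hairpin 1 and -0.02 with hairpin 3, where 14 were above and 14 below control. Of 13 protein-coding genes between 1 and 5 CPM, 12 were lower with hairpin 3 than with hairpin 1, with a median of -0.43, and their medians against control were 0.26 and -0.32. The exception was NPR3, the clearance receptor for natriuretic peptides, which averaged 0.631 CPM with control, 3.92 CPM with hairpin 1 and 9.28 CPM with hairpin 3. Of the 13, 3 were called up with both hairpins and 3 down with both, or 23.1% each. Of all tested genes 12.0% and 13.3% were so called. FAM134B, CTNND2 and SEMA5A fell with both, from 6.70, 4.20 and 3.31 CPM with control to 0.829, 0.0509 and 0.183 CPM with hairpin 1. With hairpin 3 they were at 0.182, 0 and 0.0307 CPM, so their differences between hairpins lie near the floor of the counts. The 8 genes left out by name, of which IL6ST lies on the long arm and the others on the short arm, were lower with hairpin 3 than with hairpin 1, with a median of -0.90. Against control their medians were 0.94 with hairpin 1 and 0.20 with hairpin 3, where 4 were above and 4 below control. The difference of IL6ST, -0.51, was lower than that of any long-arm member, the lowest of which was at -0.45. In 3 groups of 23 or 24 by mean CPM the median short-arm difference was -0.71, -0.74 and -0.79 from the lowest to the highest level. Its size thus grew slightly with level. In 3 such groups by gene length it was -0.78, -0.71 and -0.76 from the shortest to the longest, without such an order. Whether level or length plays a part was not tested.

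Chromosomes 4 and 20, picked after their values were seen, moved the other way between the same libraries. The median difference of hairpin 3 from hairpin 1 was 0.40 over 403 genes of chromosome 4 and 0.33 over 296 genes of chromosome 20, against -0.75 for the short-arm members. There too the hairpin 1 libraries were the ones away from control, at -0.43 to -0.31 for chromosome 4 and -0.36 to -0.30 for chromosome 20.

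Hairpin 1 against control was tested for every gene with the quasi-likelihood test of edgeR, and a gene is called at an adjusted p (Benjamini-Hochberg over the 15975 genes) under 0.05. With hairpin 1, 59 members rose and 10 fell, where 18% of all tested genes rose and 19.7% fell. By arm, 56 of 71 short-arm members rose (78.9%) and 1 fell, while 3 of 31 long-arm members rose and 9 fell. In 57 short-arm members (80.3%) every hairpin 1 library lay above every control library, against 22.6% of all tested genes. On the rest of chromosome 5, 79 genes rose and 61 fell.

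With hairpin 3, 11 members rose and 34 fell against control, where 16.6% of all tested genes rose and 18.1% fell. On the short arm 8 rose and 24 fell (33.8%), and on the long arm 3 rose and 10 fell (32.3%). In 34 short-arm members (47.9%) every hairpin 3 library lay under every control library, against 24.9% of all tested genes. The same held for 14 long-arm members (45.2%) and for 137 genes (35.7%) on the rest of chromosome 5. There 50 genes rose and 99 fell (25.8%) with hairpin 3. The lower values with hairpin 3 were thus not particular to the short arm. The difference between arms was not tested. The 2 comparisons share the control libraries.

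With the libraries of both hairpins as 1 arm of 6, 16 members were higher than control and 10 lower, where 15.9% of all tested genes were higher and 17% lower. For members higher the share was 15.7%, near the background. Without control library B the number called in both directions was 16, against 26 with all libraries. Between the hairpins, 67 members were lower with hairpin 3 and 1 was higher, where 5.3% of all tested genes were lower and 6.33% higher. That contrast chose the members, and nothing is read from it. Of the 67, 66 were on the short arm and 1, SNX18, a sorting nexin, on the long arm.

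Called up with hairpin 1 and down with hairpin 3 were 14 short-arm members: OXCT1, HMGCS1, MRPS30, DROSHA, TARS, RAD1, CARD6, MARCH6, ANKH, DNAJC21, PAIP1, ZNF622, EXOC3 and PDCD6. Over all 15975 tested genes 44 were so called (0.275%), and none of the 31 long-arm members or of the 384 genes on the rest of chromosome 5 was. In 21 short-arm members the groups were in full order, every hairpin 3 library under every control library and every control library under every hairpin 1 library, against 100 of all tested genes (0.626%). A further 8 short-arm members were called up with both hairpins: RAI14, PDZD2, MYO10, NADK2, DAB2, GDNF, IL7R and FBXL7. That was 11.3% of the arm, near the 12.0% of all tested genes called up with both.

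**Figure D3:**
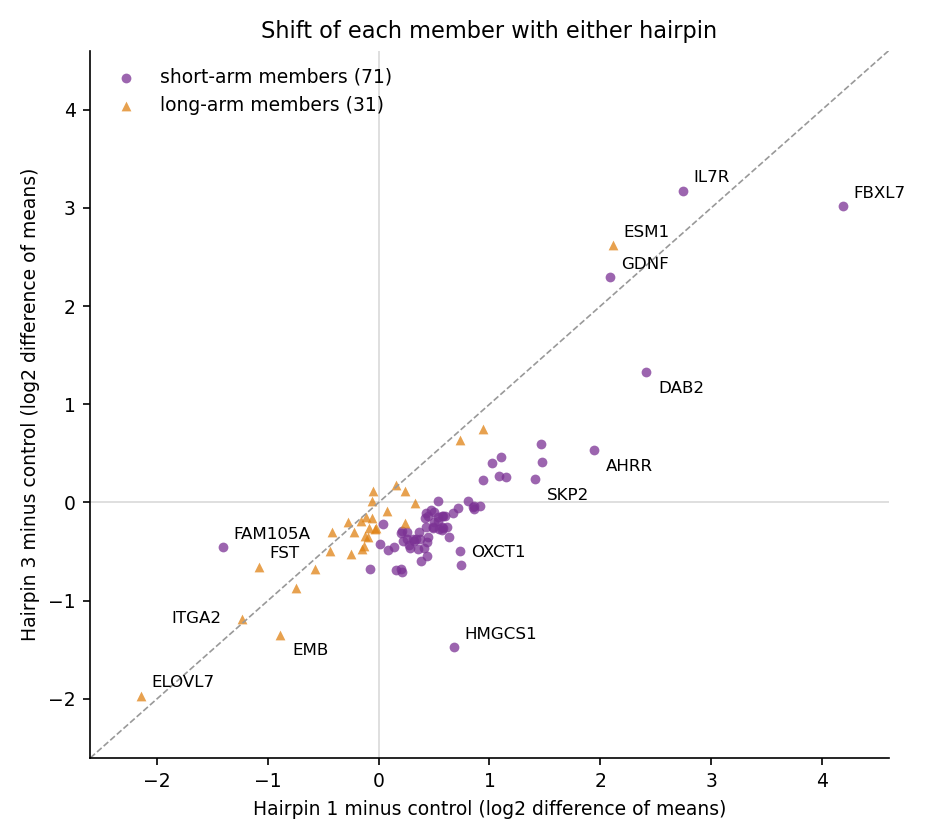
Log2 difference of group means from control with hairpin 1 (x axis) and hairpin 3 (y axis) for each of the 102 members; both share the 3 control libraries, and on the dashed line the hairpins are equal. Most short-arm members (circles) lie in a band under the line, with a median distance of -0.75 from it along the y axis, while the long-arm members (triangles) lie along it. FAM105A, IL7R and GDNF are the short-arm members above the line.

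The counts of the 6 role lists that follow stand beside the shares of the whole arm. Of all short-arm members 78.9% rose with hairpin 1, and with hairpin 3 33.8% fell and 11.3% rose. Of all long-arm members 29% fell with hairpin 1 and 32.3% with hairpin 3. No list was tested against its arm, and its counts are not read as a response of its function. Genes for RNA handling and translation were the largest group on the short arm. Of 15 members of this list, 10 rose with hairpin 1 and none fell, and 8 fell with hairpin 3 and none rose, with medians of 0.41 and -0.31. TARS, the threonyl-tRNA synthetase of the cytoplasm, was at 438, 384 and 381 CPM with control, 566, 497 and 568 CPM with hairpin 1 and 305, 267 and 250 CPM with hairpin 3. The 3 groups did not overlap. TARS rose with hairpin 1 by a log2 fold change of 0.44 (SE 0.11, adjusted p = 0.00583) and fell with hairpin 3 (-0.55, SE 0.11, adjusted p = 0.00144). RPL37, a protein of the large ribosomal subunit, averaged 668 CPM with control, 949 CPM with hairpin 1 and 584 CPM with hairpin 3, and only the rise with hairpin 1 was called (0.51, adjusted p = 0.00252). CCT5, a subunit of the cytosolic chaperonin, likewise rose with hairpin 1 (0.58, adjusted p = 0.0055) while its value with hairpin 3 was -0.27 (adjusted p = 0.159). MRPL36, of the mitochondrial ribosome, was at 0.26 with hairpin 1 (adjusted p = 0.0794) and fell with hairpin 3 (-0.38, adjusted p = 0.0184), a call lost without control library B or without hairpin 3 library A. The 4 long-arm members of the list, SKIV2L2, DHX29, DIMT1 and PELO, had medians of -0.19 and -0.23, and of these DIMT1 was called lower with hairpin 1 (-0.29, adjusted p = 0.0398, lost without control library A or B, any hairpin 1 library, or hairpin 3 library B or C).

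All 6 short-arm members of the mitochondria and metabolism list rose with hairpin 1, with a median of 0.66, and 2 of them, OXCT1 and HMGCS1, fell with hairpin 3. OXCT1 is the mitochondrial transferase that starts the use of ketone bodies. It was at 68.8, 62.3 and 56.3 CPM with control, 108, 102 and 102 CPM with hairpin 1 and 50.4, 37.0 and 34.1 CPM with hairpin 3, with no overlap between groups. The log2 fold changes were 0.74 (SE 0.13, adjusted p = 0.000643) and -0.63 (SE 0.14, adjusted p = 0.0026). LPCAT1, a lysophospholipid acyltransferase, NNT, the nicotinamide nucleotide transhydrogenase, and NDUFS6, a subunit of respiratory complex I, rose with hairpin 1 by 0.64, 0.60 and 0.54. With hairpin 3 their values were -0.32, -0.14 and -0.27, and none was called. NNT shares exons with NNT-AS1, which averaged 25.1 CPM, and the libraries carried no strand. On the long arm 1 of 6 members of the list, GPX8, rose with either hairpin. ELOVL7, an elongase of very long fatty acids, fell with both, from 29.4 ± 5.30 CPM (SD, n = 3) with control to 6.22 ± 0.741 and 7.15 ± 1.35 CPM, with log2 fold changes of -2.24 and -2.04, which were the largest falls among the 102 members with either hairpin.

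Of 7 short-arm members for cell division and genome upkeep, 6 rose with hairpin 1 and 2 fell with hairpin 3. SKP2, which recognises the cyclin-dependent kinase inhibitor p27 for degradation, was at 128, 104 and 102 CPM with control, 314, 265 and 309 CPM with hairpin 1 and 160, 121 and 114 CPM with hairpin 3. Every hairpin 1 library exceeded every other library, and hairpin 3 overlapped control. The rise with hairpin 1 was 1.41 (SE 0.14, adjusted p = 3.32e-06) and the value with hairpin 3 was 0.24 (adjusted p = 0.198). NUP155, a scaffold protein of the nuclear pore, rose with hairpin 1 (0.45, adjusted p = 0.0336), a call lost without control library B or C or without hairpin 1 library A or B. On the long arm PLK2, a polo-like kinase, was at 0.25 with hairpin 1 and 0.12 with hairpin 3, and neither was called. None of the 6 long-arm members of the list rose with either hairpin, and 2 fell with each.

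All 7 short-arm members of the receptors and signalling list rose with hairpin 1, with a median of 0.72, while with hairpin 3 there were 2 that rose, GDNF and IL7R, and 1 that fell, PDCD6. PRKAA1, a catalytic subunit of the AMP-activated kinase, averaged 112 CPM with control, 168 CPM with hairpin 1 and 94.5 CPM with hairpin 3 (0.58 and -0.25, only the first called). DAP, a regulator of autophagy, stood at 0.43 and -0.25, again with only the first called. PDCD6, a calcium-binding protein, rose with hairpin 1 (0.33, adjusted p = 0.0279) and fell with hairpin 3 (-0.40, adjusted p = 0.0113). The rise was lost without control library A or C or hairpin 1 library B or C, and the fall without control library B. AHRR, the repressor of the aryl hydrocarbon receptor, was at 1.89, 2.19 and 2.96 CPM with control, 7.76, 11.6 and 12.1 CPM with hairpin 1 and 4.30, 3.13 and 3.36 CPM with hairpin 3, so that the 3 groups did not overlap. Its rise with hairpin 1 was 2.15 (SE 0.23, adjusted p = 7.66e-06) and its value with hairpin 3 was 0.61 (adjusted p = 0.0737). AHRR averaged 2.35 CPM with control and 3.59 CPM with hairpin 3. It passed the 5 CPM limit only through hairpin 1, so its rise is not independent of the limit. The 3 long-arm members of the list, MAP3K1, FST and ARL15, all fell with hairpin 3, and MAP3K1 and FST fell with hairpin 1.

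The adhesion and cytoskeleton list had the largest short-arm median with hairpin 1 among the 6 lists, 1.12, and was the only list with a short-arm median above control with hairpin 3, 0.43. With hairpin 1, 5 of 6 rose, and with hairpin 3, 4 rose and 1 fell. RAI14, an actin-associated protein, was at 334, 272 and 272 CPM with control, 582, 676 and 620 CPM with hairpin 1 and 423, 393 and 387 CPM with hairpin 3. MYO10, an unconventional myosin of filopodia, averaged 240 ± 13.1, 489 ± 14.0 and 318 ± 22.3 CPM in the same order. Both rose with either hairpin: RAI14 by 1.10 (SE 0.11, adjusted p = 3.73e-06) and 0.45 (adjusted p = 0.00516), MYO10 by 1.02 (SE 0.09, adjusted p = 1.63e-06) and 0.40 (adjusted p = 0.00405). Their differences of hairpin 3 from hairpin 1, -0.64 and -0.62, were among the 3 nearest to the median of all members. BASP1, a membrane-bound protein of growth cones, rose with hairpin 1 (1.15, adjusted p = 6.87e-07) and was at 0.26 with hairpin 3 (adjusted p = 0.0514). TRIO, an exchange factor for small GTPases, was at 0.16 with hairpin 1 (adjusted p = 0.278) and fell with hairpin 3 (-0.68, adjusted p = 0.000314). The 3 genes thus had different values against control and differences between hairpins of -0.64, -0.89 and -0.84 for RAI14, BASP1 and TRIO. DAB2, an endocytic adaptor, was at 24.9, 21.6 and 24.7 CPM with control, 108, 144 and 136 CPM with hairpin 1 and 60.9, 60.2 and 59.8 CPM with hairpin 3, with no overlap between groups. It rose with both, by 2.45 (SE 0.12, adjusted p = 3.65e-09) and 1.34 (SE 0.12, adjusted p = 1.03e-06).

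Of 8 short-arm members for membrane transport and trafficking, 3 rose with hairpin 1 and 6 fell with hairpin 3, with medians of 0.23 and -0.44. GOLPH3, a phosphoinositide-binding protein of the Golgi, averaged 138 ± 6.17 CPM (SD, n = 3) with control, 160 ± 2.90 CPM with hairpin 1 and 84.6 ± 5.84 CPM with hairpin 3. It fell with hairpin 3 (-0.71, SE 0.09, adjusted p = 3.25e-05) and was not called with hairpin 1 (0.21, adjusted p = 0.0759). CLPTM1L was at 0.27 with hairpin 1 (adjusted p = 0.0739) and fell with hairpin 3 (-0.43, adjusted p = 0.00966), a call lost without hairpin 3 library B or C. SLC1A3, a glutamate transporter, was at 0.17 and -0.45 with adjusted p of 0.481 and 0.0603. On the long arm 1 of 3, SLC38A9, fell with hairpin 3. The 6 lists held 49 of the 71 short-arm members and 25 of the 31 long-arm members.

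In 57 of 71 short-arm members the difference of hairpin 3 from hairpin 1 lay within 0.25 of -0.75. The distance between the quartiles of this difference was 0.264 for the short-arm members. It was 0.271 for the long-arm members, 0.256 for the rest of chromosome 5, 0.256 for chromosome 4 and 0.223 for chromosome 20. A spread of this size was thus not particular to the short arm. Just 3 of the 102 members were at least 1 from the median of their own arm: HMGCS1, FAM105A and IL7R. Against the median of all members, -0.63, FST and ESM1 of the long arm were also at least 1 away. On the short arm only FAM105A, IL7R and GDNF had a higher mean with hairpin 3 than with hairpin 1. FAM173B and IL7R were the short-arm members whose hairpin 1 and hairpin 3 libraries overlapped.

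HMGCS1 makes HMG-CoA for cholesterol synthesis and lies at 43289395 to 43313512, on the minus strand. It was at 148, 127 and 134 CPM with control, at 160, 246 and 266 CPM with hairpin 1 and at 65.6, 39.6 and 44.8 CPM with hairpin 3. The groups did not overlap, and the lowest hairpin 1 library was close to the controls. It rose with hairpin 1 by 0.71 (SE 0.19, adjusted p = 0.0105), with an adjusted p of 0.0508 without hairpin 1 library B and 0.0557 without library C. It fell with hairpin 3 (-1.45, SE 0.20, adjusted p = 7.55e-05). The log2 difference of hairpin 3 from hairpin 1 was -2.15, in the direction of its neighbours and -1.40 from the short-arm median. FBXO4, a substrate adaptor of an SCF ubiquitin ligase, was also among the 5 lowest differences, at -1.22: it rose with hairpin 1 (0.77, adjusted p = 0.00452) and was at -0.52 with hairpin 3 (adjusted p = 0.0525).

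FAM105A, a pseudoenzyme related to the deubiquitinase OTULIN and encoded next to it, went against its neighbours. It lies at 14581775 to 14615007 on the plus strand. Its level was 11.0, 9.06 and 9.80 CPM with control, 5.19, 2.54 and 3.04 CPM with hairpin 1 and 8.89, 5.93 and 6.81 CPM with hairpin 3. All hairpin 1 libraries were the lowest and all control libraries the highest. It was the 1 short-arm member that fell with hairpin 1 (-1.47, SE 0.24, adjusted p = 0.000319), and its value with hairpin 3 was -0.47 (SE 0.23, adjusted p = 0.14). FAM134B, CTNND2 and SEMA5A, short-arm genes under the CPM limit, also fell with hairpin 1. OTULIN, the next member along the arm, rose with hairpin 1 (0.57) and was at -0.14 with hairpin 3, without a call. SLC12A7, a potassium-chloride cotransporter, was the other short-arm member without a higher mean with hairpin 1 than with control (-0.08, not called).

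IL7R and GDNF rose with both hairpins and were not lower with hairpin 3 than with hairpin 1. Their control means, 1.39 and 2.39 CPM, were under the 5 CPM limit. Both were thus members only through the knockdown libraries, and the limit favours such rises. IL7R, the alpha chain of the interleukin-7 receptor, lies at 35852695 to 35879603 and was at 0.823, 1.59 and 1.77 CPM with control, 7.71, 15.1 and 14.4 CPM with hairpin 1 and 11.2, 16.8 and 22.2 CPM with hairpin 3. Every knockdown library was above every control library, and the hairpins overlapped. The log2 fold changes were 3.15 (SE 0.35, adjusted p = 9.68e-06) and 3.59 (SE 0.35, adjusted p = 3.05e-06). GDNF, a secreted neurotrophic factor that signals through RET, was at 2.62, 2.59 and 1.96 CPM with control, 10.4, 12.4 and 12.4 CPM with hairpin 1 and 13.4, 14.1 and 13.3 CPM with hairpin 3. It rose by 2.30 (SE 0.16, adjusted p = 1.34e-07) and 2.50 (SE 0.16, adjusted p = 6.05e-08). Beside IL7R, the leukocyte marker PTPRC was at 0.335 to 0.630 CPM with control, 0.214 to 0.888 CPM with hairpin 1 and 0 to 0.588 CPM with hairpin 3.

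FBXL7, an F-box protein of an SCF ubiquitin ligase, had the largest rise of all members with hairpin 1. Its control mean, 1.27 CPM, was under the 5 CPM limit, so FBXL7 was a member only through the knockdown libraries. A limit on the mean over all libraries favours genes that rise from a low control level. Such rises are therefore given as a description. FBXL7 was at 1.21, 1.59 and 1.00 CPM with control, 32.4, 32.0 and 29.7 CPM with hairpin 1 and 16.4, 12.1 and 12.8 CPM with hairpin 3. It rose by 4.63 (SE 0.19, adjusted p = 6.81e-10) and 3.44 (SE 0.19, adjusted p = 1.23e-08), with hairpin 3 at -1.17 from hairpin 1. FBXL7 and DAB2 thus rose with both hairpins as IL7R and GDNF did, yet stood lower with hairpin 3 in every library.

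**Figure D4:**
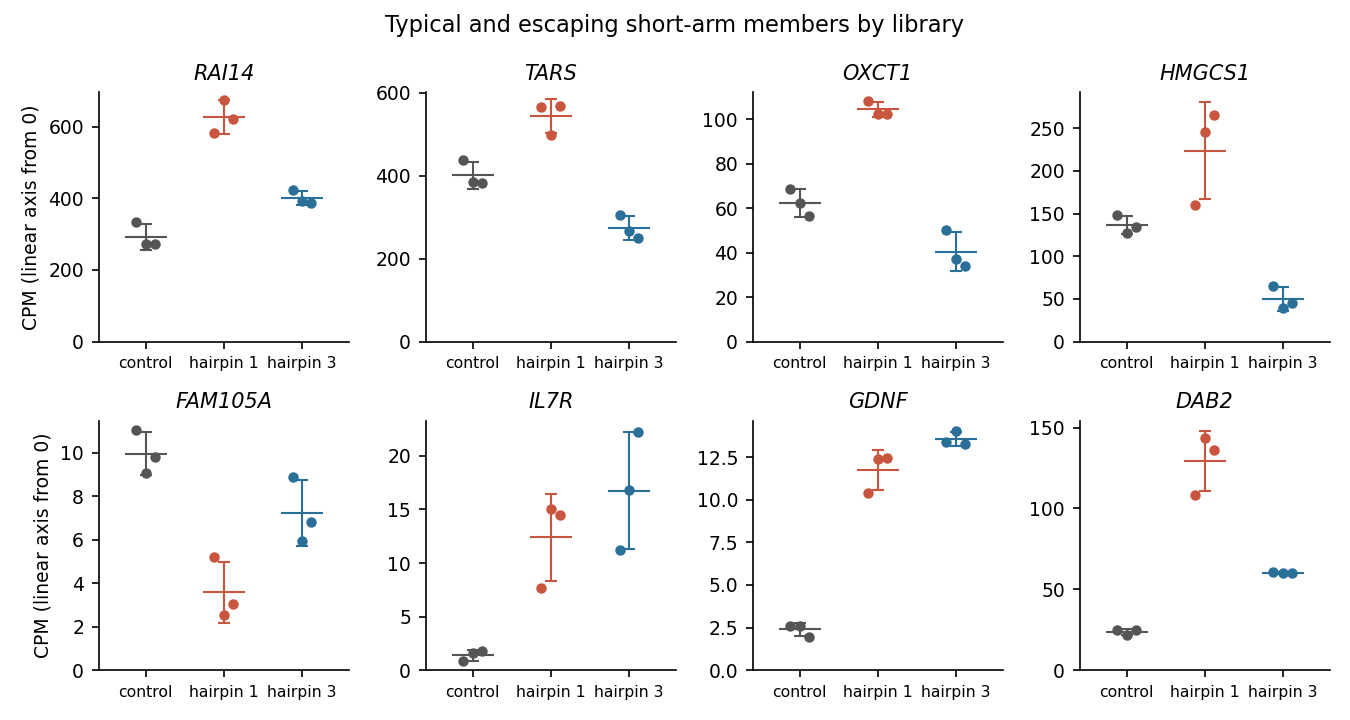
CPM on linear axes from 0 in each library (points), with the group mean and SD (bars, n = 3), for 8 short-arm members. RAI14 and TARS stand lower with hairpin 3 than with hairpin 1 like most of the arm, and OXCT1 and HMGCS1 do so more strongly. FAM105A, IL7R and GDNF do not, while DAB2 does. RAI14 and DAB2 are above control with both hairpins.

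Of the 31 long-arm members, 3 were called up with both hairpins (ESM1, GPX8 and ITGA1), or 9.68%, and 7 were called down with both, or 22.6%, where 12.0% and 13.3% of all tested genes were so called. DIMT1 and NDUFAF2 were called down with hairpin 1 alone, SLC38A9, ARL15 and SMIM15 were called down with hairpin 3 alone, and none was called in opposite directions. EMB, a glycoprotein that chaperones monocarboxylate transporters and the first gene after the centromere, was at 75.1, 72.1 and 62.3 CPM with control, 46.6, 33.4 and 33.3 CPM with hairpin 1 and 30.95, 25.0 and 25.7 CPM with hairpin 3. It fell with hairpin 1 (-0.88, SE 0.14, adjusted p = 0.000252) and with hairpin 3 (-1.36, SE 0.14, adjusted p = 7.43e-06). ITGA2, the collagen-binding integrin alpha-2 chain, fell from 234 ± 13.3 CPM (SD, n = 3) to 101 ± 24.5 and 105 ± 29.4 CPM. ESM1, a secreted proteoglycan, rose from 9.76 ± 3.87 CPM to 46.1 ± 24.1 and 60.1 ± 12.0 CPM, with hairpin 1 libraries at 45.6, 22.2 and 70.4 CPM that overlapped those of hairpin 3. FST, a secreted activin antagonist, fell to 15.4 ± 1.27 CPM with hairpin 1 from 34.1 ± 9.48 CPM (-1.14, adjusted p = 0.000701). With hairpin 3 it was at 21.3 ± 5.12 CPM (-0.68, adjusted p = 0.0202), a call lost without control library A or B or without hairpin 3 library B or C.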

How the data were processed

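Poly(A) RNA libraries of OVCA433 cells (3 groups of 3) were sequenced without strand information. Per the submitters' processing notes, HISAT2 2.0.5, featureCounts 1.5.0-p3 and hg38 were used. The values are read counts that the authors deposited unnormalized, beside each gene's length, start and type. GENCODE 29 held 102 of the 102 members, 99 with the same coordinates. Genes passing filterByExpr of edgeR 4.0.16 (minimum count 10, minimum total 15) were fitted in 1 model of 3 groups over 9 libraries with TMM factors in R 4.3.3, tested on simulated data before use. The alternatives were DESeq2 1.42.0, other scalings and filters, a replicate block and each library left out. CPM for the members' limit used library totals, and CPM printed per library used TMM. The p-values measure the spread between libraries within groups, estimated over all 9 libraries of 1 line and with information shared across genes. The labels do not say whether the 3 libraries of a group came from separate transductions.

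The members, the role lists, the split by arm and the other sets were chosen with earlier results of these data known. The genes named were MPZL3, the members with the 5 highest, 5 lowest and 3 most typical differences between hairpins, the 3 largest called rises and falls with each hairpin, the 3 most abundant members of each of the 6 role lists and the 2 genes on either side of each limit; other genes are named only in counts or as neighbours and were chosen after their values were seen. Some genes of the marker and sterol lists are not reported here.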

Additional observations from a re-analysis of the deposited data

Results flagged for a closer look

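Some values moved in opposite directions with the hairpins, in that every hairpin 1 library lay above the control mean and every hairpin 3 library under it. The difference between the hairpins was not tested for any of them, since it is the one that chose the genes. It held for the median of all members (hairpin 3 minus hairpin 1 of -0.63) and of the short-arm members (-0.75). Among the named members it held for HMGCS1 (-2.15), OXCT1 (-1.37), FBXO4 (-1.22), TARS (-0.99), GOLPH3 (-0.91), CCT5 (-0.86), PRKAA1 (-0.83), NDUFS6 (-0.81), PDCD6 (-0.71), CLPTM1L (-0.71), RPL37 (-0.69), DAP (-0.68) and MRPL36 (-0.62). In all, 34 of 71 short-arm members and 1 of 31 long-arm members had this pattern. The share over all tested genes was not counted, and nothing is read from these counts.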

How the results depend on the processing

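A second threshold, a log2 fold change of 1 or more in size, left 17 members called with hairpin 1 against control (69 without it), 9 with hairpin 3 against control (45), 9 with hairpin 3 against hairpin 1 (68) and 11 for both hairpins against control (26). The labels do not say what a shared replicate letter marks. Deviations of same-letter libraries correlated at 0.0515 to 0.466 over 9 pairs, 7 of them over 0.1, and those of other pairs at -0.44 to 0.18. By letter the values were 0.40 to 0.47 for A, 0.05 to 0.14 for B and 0.23 to 0.33 for C. Not every library correlated best with its own letter. The main model did not pair the libraries, and the calls with hairpin 3 depend on that choice. A replicate block gave 79, 70, 76 and 23 members called in the 4 comparisons, of which the 70 with hairpin 3 (15 higher, 55 lower) was over 1.5 times the 45 without the block. With each library left out in turn, 60 to 69 members were called with hairpin 1, 32 to 55 with hairpin 3, 62 to 70 between hairpins and 16 to 26 for both hairpins, the 16 without control library B. The median of all members then ranged from 0.38 to 0.44 with hairpin 1, -0.33 to -0.17 with hairpin 3 and -0.68 to -0.61 between hairpins, and that of the short-arm members, a split added after the values were seen, from 0.48 to 0.53, -0.32 to -0.17 and -0.84 to -0.69. DESeq2's size factors, library totals, DESeq2's Wald test, no filter on low counts and CPM limits of 10 and 1 left the 4 counts within 1.5 times and the 6 medians within 1 SD of the libraries. For the 42 named genes, 1087 of 1176 fold changes against control under these settings kept both direction and call, 51 gained and 33 lost a call, and 5 that were not called changed sign: NUP155 with hairpin 3 (0.031 without hairpin 3 library C), SLC1A3 with hairpin 1 (-0.087 without hairpin 1 library B), IPO11 with hairpin 1 (0.0074 without control library A and 0.090 without hairpin 1 library C) and SREK1IP1 with hairpin 3 (0.031 without control library A). Over all 14 alternative settings these fold changes ranged from -0.32 to 0.031, -0.087 to 0.32, -0.14 to 0.090 and -0.17 to 0.031. The cause of these changes was not tested. Depth was 16850854 to 23890191 counts a library, and its effect on the calls was not tested.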

Other observations

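HMGCS1 had the largest fall with hairpin 3 among the short-arm members, and 11 other genes of sterol synthesis and its control, listed after its values were seen, are given as a description. With hairpin 3, 9 of the 11 were called lower than control, and the median was -0.84. With hairpin 1 the median was -0.05. DHCR7, the last enzyme of the pathway, averaged 171 ± 14.4 CPM (SD, n = 3) with control, 137 ± 25.0 CPM with hairpin 1 and 78.8 ± 12.3 CPM with hairpin 3. SQLE, a squalene epoxidase on another chromosome, averaged 160 ± 2.17 CPM with control, 160 ± 11.2 CPM with hairpin 1 and 88.4 ± 12.7 CPM with hairpin 3. FDPS and CYP51A1 were the genes of the list that were not called with hairpin 3 (-0.37 and -0.48). Of the genes left out by name, CDH6, a cadherin, was at 46.6 ± 6.36 CPM with hairpin 1 and at or under 0.647 CPM in each of the other 6 libraries.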
